A study of Mus musculus with 6 samples.

Results

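miR-320-3p, miR-484 and miR-877-5p are microRNAs (miRNAs) whose hairpin precursors are made without Drosha, the nuclear enzyme that cuts most miRNA hairpins out of longer transcripts. They were picked by name from the row names mmu-miR-320-3p, mmu-miR-484 and mmu-miR-877-5p, and all 3 were found among 1964 mature miRNA rows and 16310 rows in all. The libraries were small RNA libraries of exosomes, vesicles that cells shed into their medium, 3 of them from cultured epidermal stem cells (ESC) of mouse dorsal skin and 3 from cultured fibroblasts of the dermis there (Fb). Per the labels' protocols, ESC came from C57BL/6 mice aged 3 weeks, were enriched by rapid adhesion to collagen IV and grew in keratinocyte serum-free medium. Fb came from db/db mice, a diabetic strain that lacks a working leptin receptor, aged 14 weeks, and grew in DMEM with fetal bovine serum until a serum-free period of 2 days before collection. The strain field nevertheless reads C57BL/6 for every library. Both groups were at the same early passage, and the labels name no drug or transgene. Per the protocols, cell type, mouse genotype, mouse age and medium differ together between the groups, and mouse strain may differ too. Their parts in any difference therefore cannot be told apart. The labels call the libraries biological replicates but tie none to a mouse, and p-values therefore reflect library-to-library spread only, which may be partly technical.

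Most miRNAs begin as hairpins in long primary transcripts, which Drosha trims before Dicer cuts out the mature strand. The miR-320 and miR-484 hairpins instead start at or near a transcription start, and the miR-320 hairpin is known to carry a cap and to leave the nucleus through Exportin-1. miR-877 is a mirtron, a hairpin that is a spliced and debranched intron. All 3 still need Dicer. miR-484 is also used as a reference RNA in studies of circulating miRNAs.

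The gene of miR-320 (Mir320, ENSMUSG00000065528.1) lies on chromosome 14 from 70443510 to 70443591 on the plus strand (GRCm38, GENCODE M21). It overlaps no other annotated gene and sits 63 bases before the start of Polr3d, which encodes an RNA polymerase III subunit and runs the other way. The gene of miR-484 (Mir484, ENSMUSG00000070074.1) lies on chromosome 16 from 14159626 to 14159692 on the plus strand, 3583 bases before the start of Nde1, a dynein regulator, on the same strand. It also overlaps an exon of Marf1, a meiosis regulator annotated on the minus strand. The use of strand in counting is not given in the sources used here, so reads of those 2 strands may not have been kept apart. The gene of miR-877 (Mir877, ENSMUSG00000077931.1) lies on chromosome 17 from 35960730 to 35960814 on the minus strand, in an intron of Abcf1, which encodes an ABC-family translation factor.

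Sequences of 2 of the 3 members were matched by name in RefSeq (GRCm38.p6) and are shown for their ends and seeds, the stretch of bases 2 to 8 that pairs with targets. Capitals mark the seed in the first 3 lines and the mature miRNA within its hairpin in the last 2.
mmu-miR-484: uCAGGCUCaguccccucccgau
mmu-miR-877-5p: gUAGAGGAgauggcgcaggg
mmu-miR-877-3p: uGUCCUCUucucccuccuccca
hairpin of miR-484: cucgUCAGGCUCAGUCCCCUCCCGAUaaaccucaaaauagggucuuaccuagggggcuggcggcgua
hairpin of miR-877 with miR-877-5p: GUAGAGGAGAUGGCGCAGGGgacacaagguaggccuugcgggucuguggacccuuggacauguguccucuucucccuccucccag

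The seeds of miR-484, miR-877-5p and miR-877-3p, the other arm, were each shared by 0 other mature miRNAs of 1679 names in the table, so none belongs to a seed family there. The miR-877 hairpin is exactly 1 whole Abcf1 intron of 85 bases. It begins with GU and ends with AG, the ends of a spliced intron, as did 30 (2.99%) of 1005 hairpins. Its span matched a whole intron of a protein-coding gene base for base, which held for 16 (1.59%) of these hairpins. miR-877-5p starts at the first base of the hairpin, as did 143 (20.8%) of 689 5p arms, whose median start was base 6. miR-484 starts at base 5 of a 67-base hairpin. G and C made up 63.6% of the bases of miR-484 and 65.0% of those of miR-877-5p, against a median of 52.2% over the 1679 names. The table had a lower G and C share than miR-484 for 82.4% of them and than miR-877-5p for 86.8%.

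Values are given on scales that answer different questions. CPM of miRNA reads are reads scaled to 1000000 mature miRNA reads and say how much of the miRNA content a miRNA holds, and CPM of all reads are reads scaled to 1000000 reads assigned to any annotated RNA. Assigned reads numbered 6914504 to 11149046 per library. Mature miRNAs held 13.3% to 14.7% of them in ESC libraries and 0.613%, 2.05% and 1.72% in Fb replicates 1, 2 and 3, so any miRNA with a typical share of miRNA reads is higher in ESC on the second scale. Neither scale tells fewer vesicles from less of the RNA in each. The 7 epithelial miRNAs checked together ranged from 59872 to 74600 CPM of miRNA reads over ESC libraries and from 7457 to 14174 over Fb libraries, and the 5 stromal ones 128 to 209 and 106305 to 180838, in the direction of the labels. Of the stromal ones only miR-199a-3p overlapped between groups. It was at 97733 CPM in Fb replicate 1 but 3.80 in Fb replicate 2, below its 72.5 and 49.9 in ESC replicates 2 and 3. The 7 blood and serum miRNAs together ranged from 8.90 to 309 CPM over ESC libraries and from 410 to 11387 over Fb libraries. Of the blood and serum miRNAs, miR-142a-3p was at 0 in every library, miR-451a had at most 7 reads in any, and miR-486a-5p gave most of the reads in all libraries but ESC replicate 1, where it had under 1. The part of blood or serum RNA in the members' values was not tested.

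miR-320-3p was the most abundant member, among the leading miRNAs of both groups. It had 35157, 38864 and 49390 reads in ESC replicates 1 to 3, and 2467, 1220 and 1940 reads in Fb replicates 1 to 3. Of miRNA reads it held 25241, 26280 and 32438 CPM in ESC, ranks 10, 10 and 8 among mature miRNAs. In Fb it held 50326, 6854 and 16336 CPM, ranks 5, 29 and 15. The ESC libraries lay close together, while Fb replicate 1 was above and Fb replicates 2 and 3 below all of them, so the groups overlapped. The highest Fb library was 7.34 times the lowest, against 1.29 times in ESC. Counting error was far smaller, as the exact 95% interval of the highest Fb value was 48409 to 52300 and that of the lowest 6476 to 7249.

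The group means of miR-320-3p were 27986 ± 3890 CPM of miRNA reads in the ESC group and 24505 ± 22859 in the Fb group (SD, n = 3 each). edgeR's quasi-likelihood test gave a log2 fold change (ESC over Fb) of 0.72 (SE 0.58, 95% interval -0.66 to 2.09, adjusted p = 0.340 over the 325 mature miRNAs tested). The difference did not pass, and its interval spans both directions. Without Fb replicate 1, the library with the fewest miRNA reads, the log2 fold change was 1.68 (SE 0.35) and passed as higher in ESC at an edgeR adjusted p = 0.00555. In that fit 103 of 380 miRNAs (27.1%) were called higher in ESC.

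On the scale of all reads miR-320-3p was higher in every ESC library. It was at 3553, 3486 and 4762 CPM of all reads in ESC replicates 1 to 3 and at 309, 140 and 281 in Fb replicates 1 to 3. The means were 3934 ± 718 (SD, n = 3) and 243 ± 90.1 (SD, n = 3), a ratio of 16.2. That ratio stood above the ratios of 71.9% of the 135 other miRNAs with at least 10 reads in every library, whose median was 8.22. Fb replicate 1, which stood out on the miRNA scale, was only slightly above Fb replicate 3 here.

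miR-484 was of middling abundance, with 1019, 1213 and 979 reads in ESC replicates 1 to 3 and 112, 163 and 154 in Fb replicates 1 to 3. As CPM of miRNA reads these were 732, 820 and 643 in ESC, ranks 82, 79 and 85, and 2283, 915 and 1296 in Fb, ranks 56, 84 and 80. Every Fb library was above every ESC library, with Fb replicate 1 again the highest. The means were 732 ± 88.6 CPM for the ESC group and 1498 ± 706 for the Fb group (SD, n = 3 each). Even so, the edgeR log2 fold change was -0.57 (SE 0.34, 95% interval -1.36 to 0.21) and did not pass at an adjusted p = 0.190. It was -0.21 (SE 0.24, edgeR adjusted p = 0.487) without Fb replicate 1 and -1.03 (SE 0.39, edgeR adjusted p = 0.0636) with miRNA totals in place of TMM factors, which scale libraries on most of their miRNAs.

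As CPM of all reads miR-484 was at 103, 109 and 94.4 in ESC replicates 1 to 3 and at 14.0, 18.7 and 22.3 in Fb replicates 1 to 3, so here every ESC library was higher. The means were 102 ± 7.25 (SD, n = 3) and 18.3 ± 4.15 (SD, n = 3). Their ratio of 5.57 was above that of 37.0% of the 135 other miRNAs with at least 10 reads in every library. The direction of miR-484 thus turned with the scale: it held more of the miRNA reads in Fb and more of all reads in ESC.

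miR-877-5p was the rarest member. It had 113, 170 and 144 reads in ESC replicates 1 to 3 and 14, 6 and 4.8 reads in Fb replicates 1 to 3, where a library's value is set by a handful of reads. Of miRNA reads it held 81.1, 115 and 94.5 CPM in ESC and 286, 33.7 and 40.4 in Fb replicates 1 to 3. Fb replicate 1 was above and the other Fb libraries below all ESC libraries, the same order as for miR-320-3p. The exact 95% intervals were 156 to 479 CPM for Fb replicate 1, 12.4 to 73.4 for Fb replicate 2 and 13.7 to 98.3 for Fb replicate 3. On this scale Fb replicate 1 was thus apart from the other Fb libraries beyond counting error. On the scale of all reads the intervals overlapped, at 0.958 to 2.94, 0.253 to 1.50 and 0.235 to 1.69 CPM in Fb replicates 1 to 3.

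The means of miR-877-5p were 96.8 ± 17.0 CPM of miRNA reads over ESC libraries and 120 ± 144 over Fb libraries (SD, n = 3 each), and edgeR gave a log2 fold change of 0.44 (SE 0.70, 95% interval -1.20 to 2.09, adjusted p = 0.619). The mean was higher in Fb while the fitted fold pointed to ESC, and neither passed. With miRNA totals in place of TMM factors the log2 fold change was -0.058 (edgeR adjusted p = 0.956). Without Fb replicate 1 it was 1.75 (SE 0.36, edgeR adjusted p = 0.00462), called higher in ESC. Of all reads miR-877-5p held 11.4, 15.2 and 13.9 CPM in ESC replicates 1 to 3 and 1.75, 0.690 and 0.694 in Fb replicates 1 to 3, with no overlap. That is a ratio of means of 12.9, above the ratios of 64.7% of the 136 miRNAs with at least 10 reads in every library. miR-877-5p itself did not reach that depth, and the rank does not cover miRNAs with fewer Fb reads.

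**Figure D1:**
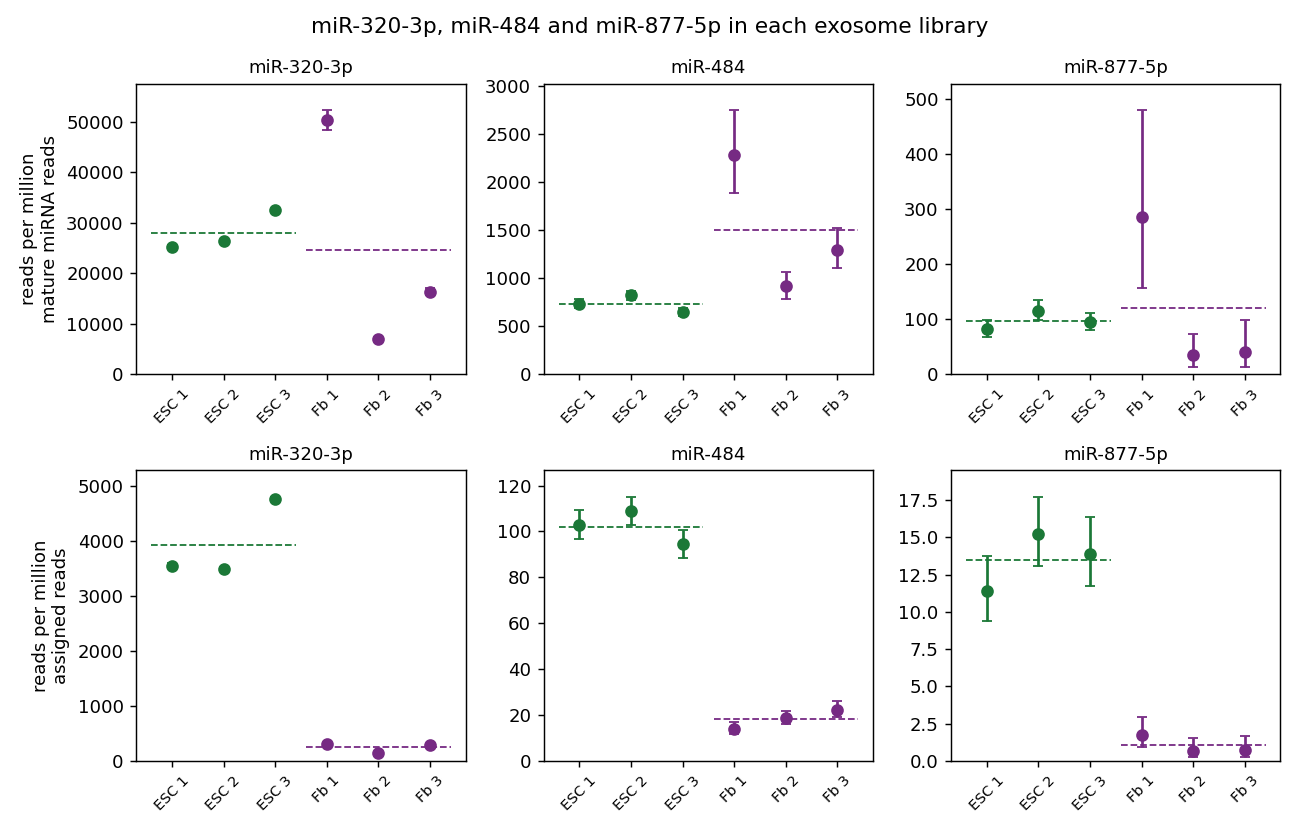
Levels of miR-320-3p, miR-484 and miR-877-5p in each library (green ESC, purple Fb), as CPM of mature miRNA reads (upper row) and CPM of all assigned reads (lower row). Bars are exact 95% binomial intervals, dashed lines are group means, and every axis is linear from 0. In the upper row Fb replicate 1 is the highest library for each member, at 50326, 2283 and 286 CPM; in the lower row every ESC library is above every Fb library.

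In the same fit the miRNA scale gave 161 calls among the 325 mature miRNAs (49.5%), of which 71 (21.8%) pointed to ESC and 90 (27.7%) to Fb, and 0 of the 3 members were called. With miRNA totals alone the split was 52 to ESC and 103 to Fb. At an unadjusted edgeR p under 0.05 the count of members was also 0, and DESeq2 and limma-trend called 0 of them as well. The groups did not overlap in share of miRNA reads for 198 (60.9%) of the 325 miRNAs, and among the members this held for miR-484 alone. In share of all reads the groups did not overlap for 277 (85.2%), so the separation of all 3 members there is close to the background.

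Set against the other miRNAs, the members lay near the middle of the distribution of fold changes. The median log2 fold change of the other tested miRNAs was -0.12 beside miR-320-3p and miR-877-5p and -0.11 beside miR-484. miR-320-3p was 0.84 above it, miR-877-5p 0.57 above it and miR-484 0.47 below it. They stood at the percentiles 64.6, 61.5 and 42.5 of the 325 fold changes.

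**Figure D2:**
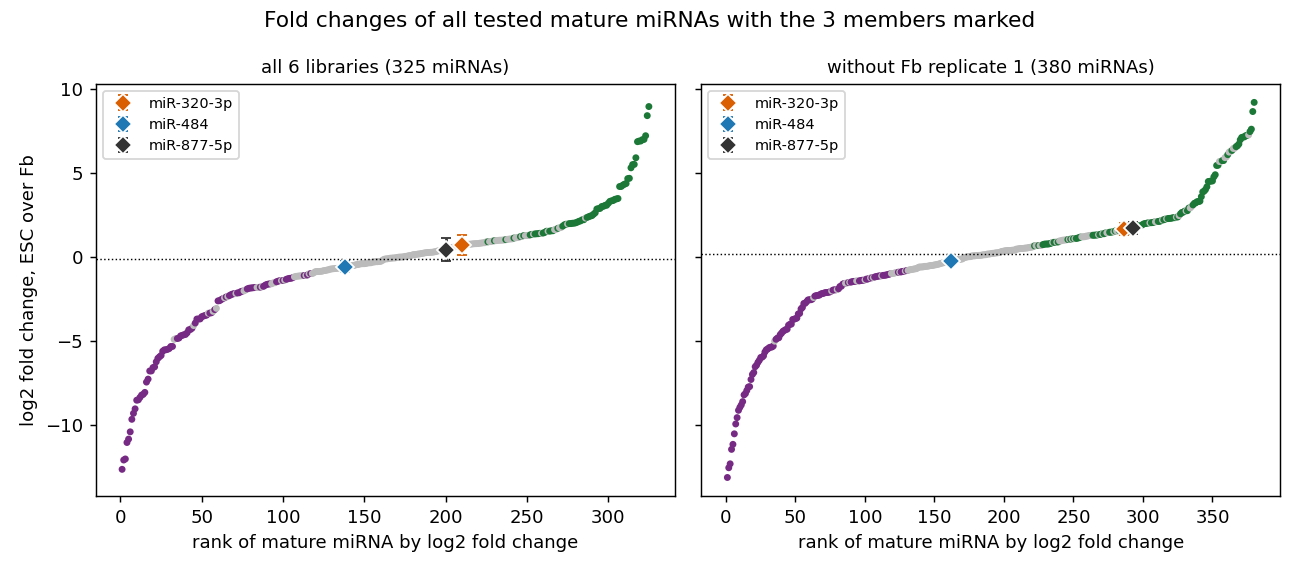
Log2 fold change (ESC over Fb, miRNA scale) of each tested mature miRNA against its rank, with all 6 libraries (left, 325 miRNAs) and without Fb replicate 1 (right, 380 miRNAs). Green and purple points were called higher in ESC and in Fb, grey points were not called, diamonds with SE bars are the members and the dotted line is the median. Without Fb replicate 1 miR-320-3p and miR-877-5p move up to 1.68 and 1.75, while miR-484 stays near the median at -0.21.

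The comparison was repeated within each library, as the log2 level of a member minus the median log2 level of the 324 other tested miRNAs, with 2 reads added to each count. For miR-320-3p this was 8.36, 8.43 and 8.88 in ESC replicates 1 to 3 and 7.57, 5.52 and 6.34 in Fb replicates 1 to 3, means of 8.56 ± 0.28 and 6.48 ± 1.03 (SD, n = 3). Every ESC library was higher, by 2.08 in the mean (exact two-sided permutation p = 0.1, adjusted exact p = 0.15 over 3 members). For miR-484 the values were 3.26, 3.43 and 3.23 in ESC and 3.14, 2.63 and 2.70 in Fb replicates 1 to 3, a difference of 0.48 with no overlap (exact permutation p = 0.1, adjusted exact p = 0.15). For miR-877-5p they were 0.11, 0.61 and 0.48 in ESC and 0.30, -1.78 and -1.82 in Fb replicates 1 to 3, a difference of 1.50 with overlap (exact permutation p = 0.2, adjusted exact p = 0.2).

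With 3 libraries against 3, an exact p of 0.1 is the smallest possible, so none of these could pass a threshold of 0.05. The share of other miRNAs that separate the groups on this measure was not computed. The lack of overlap is therefore not read as particular to miR-320-3p or miR-484. The median itself moved between groups, from 68.6 to 76.7 CPM in ESC to 149 to 264 CPM in Fb libraries for the miRNAs beside miR-320-3p, where it stands on few reads. Against only the miRNAs with at least 10 reads in every library, the difference was 0.97 for miR-320-3p, 0.35 for miR-877-5p and -0.73 for miR-484, the last with its sign turned.

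A fit of all RNAs together, with TMM factors taken over tRNA, miRNA and other genes, gave another scaling. There 354 of 2999 RNAs (11.8%) were called, 109 of them higher in ESC (3.63%), and of 307 mature miRNAs in that fit 53 (17.3%) were called higher in ESC. The count among the members was 1 of 3. miR-877-5p was called higher in ESC at a log2 fold change of 2.38 with an SE of 0.64 (edgeR adjusted p = 0.0370). miR-320-3p had 2.42 (SE 1.18, edgeR adjusted p = 0.268) and miR-484 0.48 (SE 0.97, edgeR adjusted p = 0.861), and neither passed. The median over the other miRNAs in this fit was 1.15, so miR-320-3p and miR-877-5p were 1.27 and 1.23 above it and miR-484 was 0.67 below it, in the same order as on the miRNA scale.

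The call of miR-877-5p did not hold when ESC replicate 1, 2 or 3 or Fb replicate 3 was left out (edgeR adjusted p = 0.131, 0.135, 0.135 and 0.165), while the log2 fold changes were 2.44, 2.28, 2.29 and 2.38. DESeq2 gave 2.44 with all libraries (adjusted p = 3.51e-04) and called it too. TMM factors in this fit ran from 0.231 in Fb replicate 2 to 2.18 in Fb replicate 1. With totals of all reads in place of those factors, all 3 members passed, at log2 fold changes of 4.02 for miR-320-3p, 2.48 for miR-484 and 3.66 for miR-877-5p (edgeR adjusted p = 0.00193, 0.0393 and 0.0244). With that scaling 151 (49.2%) of the 307 mature miRNAs in the fit were called higher in ESC.

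Among themselves the members kept 1 order of abundance in all 6 libraries, with miR-320-3p first, miR-484 second and miR-877-5p last. The ratio of miR-320-3p to miR-484 reads was 34.5, 32.0 and 50.5 in ESC replicates 1 to 3 and 22.0, 7.49 and 12.6 in Fb replicates 1 to 3. It was higher in every ESC library and, as a ratio within a library, does not depend on any scaling. How often ratios of other miRNA pairs separate the groups was not computed. The ratio of miR-320-3p to miR-877-5p overlapped, at 229 to 343 in ESC and 176 to 404 in Fb libraries. So did that of miR-484 to miR-877-5p, at 6.80 to 9.02 in ESC and 7.99 to 32.1 in Fb libraries. These ratios compare reads of different RNAs, which can differ in how well they enter a library.

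Variation within the Fb group was large for the members whose fold depended on Fb replicate 1. The coefficient of variation over the Fb libraries was 93.3% for miR-320-3p, 120% for miR-877-5p and 47.1% for miR-484 on the miRNA scale, against a median of 53.8% over the 325 tested miRNAs. In ESC it was 13.9%, 17.5% and 12.1%, against a median of 14.5%.

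In Fb replicate 1 the log2 level minus the mean of Fb replicates 2 and 3 was 2.25 for miR-320-3p, 2.69 for miR-877-5p and 1.07 for miR-484, where the median tested miRNA had 0.50. From the top these were ranks 36, 22 and 112 of 325. Of 136 miRNAs with at least 10 reads in every library, 67 were highest among the Fb libraries in replicate 1 on the miRNA scale. On the scale of all reads, which lowers every miRNA of that library alike, 12 (8.82%) were highest and 108 lowest there. miR-320-3p was among the 12, and miR-484 was lowest in that library. Over the 288 tested miRNAs with a sequence, G and C content and this log2 difference had a Spearman rho of 0.35 and a Pearson r of 0.33, given as a description, since the miRNAs share the same libraries. The part of base composition, or of the small miRNA share of Fb replicate 1, in the members' values was not tested.

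The miRNAs with profiles most like each member were found by the root-mean-square difference of log2 CPM over the 6 libraries, after each miRNA was centred on its own mean, among 134 other miRNAs with at least 10 reads in every library. For miR-320-3p they were miR-423-5p (0.18), let-7a-5p (0.20) and miR-125a-3p (0.20), where the median of those compared was 1.25. miR-423-5p held 10064, 10474 and 11367 CPM of miRNA reads in ESC and 18625, 1933 and 5179 in Fb replicates 1 to 3, high in Fb replicate 1 and low in the others like miR-320-3p. It was also among the 12 miRNAs highest in Fb replicate 1 on the scale of all reads. As miR-423-5p was picked for its likeness over these libraries, its shared pattern is no separate result.

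The nearest to miR-484 were miR-99b-3p (0.17), miR-425-3p (0.19) and miR-128-3p (0.23), with a median of 1.01. All 3 were higher in every Fb library than in any ESC library on the miRNA scale, as miR-484 was. They were picked for their likeness to it over these same libraries, so that is largely set by the choice. The groups did not overlap for 60.9% of all tested miRNAs. The nearest to miR-877-5p were miR-296-3p (0.43), let-7f-5p (0.46) and miR-125a-3p (0.49), with a median of 1.20, and so less close. miR-320-3p and miR-877-5p differed from each other by 0.46, while miR-484 differed from miR-320-3p by 0.94 and from miR-877-5p by 0.74.

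**Figure D3:**
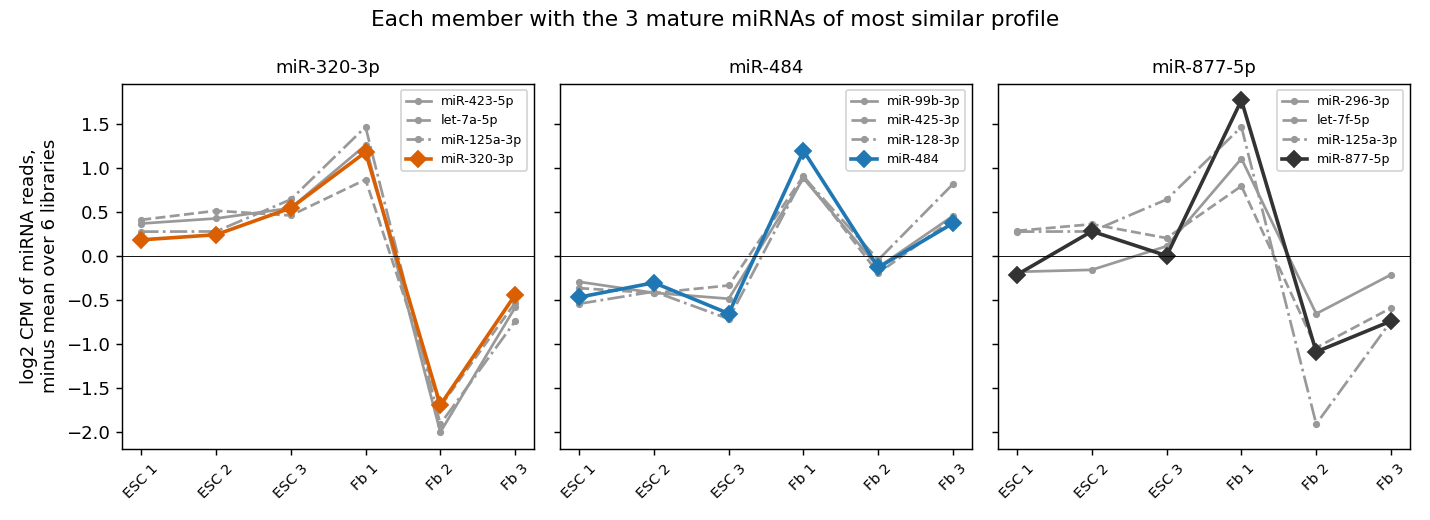
Log2 CPM of miRNA reads minus the miRNA's own mean over the 6 libraries, for each member (coloured diamonds) and the 3 most similar miRNAs (grey). Lines only join the points of one miRNA. miR-320-3p and miR-877-5p, 0.46 apart, are high in Fb replicate 1 and low in the other Fb libraries; miR-484 is above its mean in Fb replicates 1 and 3 and below it in Fb replicate 2 and the ESC libraries.

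The other products of the same hairpins were scarce. miR-320-5p, the opposite arm, had 1, 0 and 3 reads in ESC replicates 1 to 3 and 0 in every Fb library. The row of the miR-320 hairpin itself held 11.4, 7.20 and 26.1 reads in ESC and at most 0.119 in any Fb library, and the miR-484 hairpin row stayed under 1 read everywhere.

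miR-877-3p had 12.5, 29.2 and 20.3 reads in ESC and 7.64, 2.40 and 3 in Fb replicates 1 to 3, and its fold on the log2 miRNA scale was -1.38 with an SE of 0.87 (edgeR adjusted p = 0.218). Without Fb replicate 1 that fold was 0.07 (SE 0.75), so its sign turned. miR-877-5p made up 90.1%, 85.3% and 87.6% of the reads of both arms in ESC replicates 1 to 3. In Fb replicates 1 to 3 it made up 64.7%, 71.4% and 61.5%. Every ESC library was higher, with means of 87.7% ± 2.38 and 65.9% ± 5.05 (SD, n = 3; exact two-sided permutation p = 0.1, the smallest possible). The Fb shares rest on 22, 8 and 8 reads, and their exact 95% intervals of 40.7% to 82.8%, 34.9% to 96.8% and 24.5% to 91.5% reach into or past the range of the ESC shares in replicates 2 and 3. As background, 53 other hairpins had a leading 5p arm and at least 10 reads of both arms together in every library. The miR-877 hairpin itself did not reach that depth. Among the 53, 11 (20.8%) had shares that did not overlap between groups, 7 of them with the larger 5p share in ESC.

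**Figure D4:**
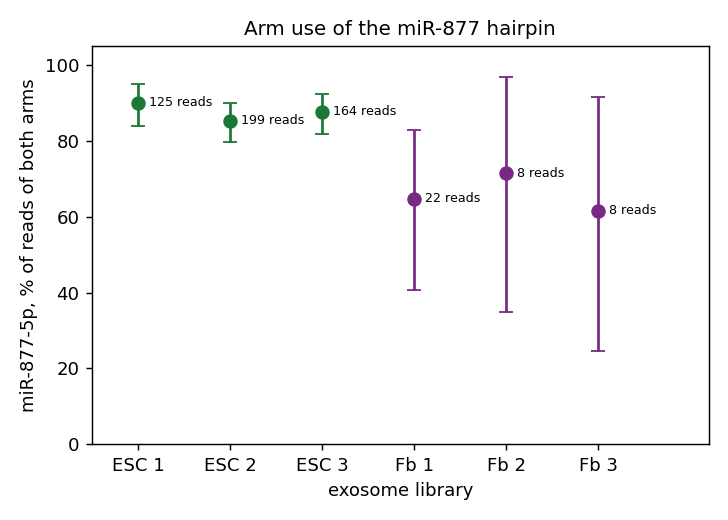
Share of miR-877-5p in the reads of both miR-877 arms in each library (green ESC, purple Fb), in percent, with exact 95% binomial intervals and the number of reads beside each point. ESC shares lie between 85.3% and 90.1% and Fb shares between 61.5% and 71.4%, with wide intervals on 8 to 22 reads.

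Other miRNAs known to be made without Drosha mostly did not pass, most of them on few Fb reads. The list held 8 arms of mirtrons and 4 arms of miRNAs from small nucleolar RNA genes, and 7 of the 12 passed the filter on low counts. Of those 7, 1 was called higher in ESC, 0 were called higher in Fb and 6 did not pass, where 21.8% and 27.7% of all tested miRNAs were called. Over the Fb libraries together, miR-702-3p had 6.33 reads, miR-3102-3p 12, miR-664-3p 3, miR-1839-3p 10.4 and miR-664-5p 15. With so few reads and a list of 7, these calls are not read as a likeness to the members. The median log2 fold change of the 7 was -0.07, beside -0.11 over all tested.

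The 1 called was miR-1981-5p, a mirtron arm that starts, like miR-877-5p, at the first base of a hairpin that fills a whole intron, here of Marc2, which encodes a mitochondrial reductase. It is shown with its seed in capitals beside miR-1224-5p, whose hairpin fills an intron of Vwa5b2.
mmu-miR-1981-5p: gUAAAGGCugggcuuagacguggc
mmu-miR-1224-5p: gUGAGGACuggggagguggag

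miR-1981-5p had 671, 694 and 892 reads in ESC and 9, 18 and 27 in Fb replicates 1 to 3. It was at 512 ± 64.0 CPM of miRNA reads over ESC libraries and 171 ± 64.1 over Fb libraries (SD, n = 3 each), with no overlap, and its log2 fold change was 2.01 (SE 0.37, edgeR adjusted p = 0.00381). Unlike miR-877-5p it was not high in Fb replicate 1, and its fold was 2.08 (SE 0.36) without that library. miR-1224-5p had 5, 2 and 8 reads in ESC and 0 in every Fb library. At those depths 0 reads allow up to 16.9 to 61.2 CPM of miRNA reads, above its 3.40 ± 1.96 CPM (SD, n = 3) in ESC, so a difference was not detectable. The mirtron arms miR-702-3p and miR-3102-3p did not pass, at log2 fold changes of -0.55 (SE 0.79) and -0.30 (SE 0.76) and edgeR adjusted p = 0.589 and 0.754.

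Among miRNAs from small nucleolar RNA genes, miR-1839-5p was the most abundant, at 897 ± 87.4 CPM of miRNA reads over the ESC libraries and 1229 ± 150 in Fb libraries (SD, n = 3). Every Fb library was above every ESC library on this scale, as for miR-484, where 60.9% of tested miRNAs did not overlap. The fitted log2 fold change of miR-1839-5p was -0.07 with an SE of 0.31 (edgeR adjusted p = 0.869). miR-664-5p was at 51.9 ± 3.67 and 66.3 ± 66.5 CPM (SD, n = 3). Its log2 fold change was 0.41 (SE 0.59, edgeR adjusted p = 0.591), and 1.31 (SE 0.39, edgeR adjusted p = 0.0249) without Fb replicate 1. miR-664-3p (1.16, SE 0.75) and miR-1839-3p (-1.15, SE 0.77) did not pass either, at edgeR adjusted p = 0.231 and 0.248.

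miR-484 was also set beside 7 other miRNAs in use as references. Of these, miR-103-3p and miR-191-5p were called higher in ESC, at log2 fold changes of 2.22 (SE 0.46) and 0.91 (SE 0.27) and edgeR adjusted p = 0.00653 and 0.0276, and 5 did not pass. Over all tested miRNAs 21.8% were called higher in ESC, and 27.1% without Fb replicate 1, so with lists of 7 these counts are not read as a result about the references. Without Fb replicate 1 miR-423-5p (1.99, SE 0.39, edgeR adjusted p = 0.00400) and miR-16-5p (0.68, SE 0.17, edgeR adjusted p = 0.0126) were called higher in ESC too. Without Fb replicate 3 the count was 0 of 7, where 38 of all tested miRNAs were called higher in ESC. Among the 5 that did not pass, the smallest fitted fold was that of miR-25-3p (-0.00, SE 0.34), followed by miR-93-5p (0.14, SE 0.28). By size miR-484 at -0.57 came after miR-186-5p (0.53, SE 0.46) and before miR-423-5p (0.85, SE 0.66) and miR-16-5p (0.98, SE 0.47). In share of miRNA reads miR-93-5p was higher in every Fb library, at 2260 ± 25.2 CPM in ESC and 2682 ± 225 in Fb (SD, n = 3 each). Its fitted fold, with TMM factors, pointed to ESC. On that scale the groups did not overlap for 60.9% of tested miRNAs. On the scale of all reads the groups did not overlap for any of the 7 or for miR-484, which is close to the background of 85.2% of tested miRNAs.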

How the data were processed

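Values analysed were the authors' deposited estimated counts for each annotated non-coding RNA, mostly fractional and not scaled. FastQC, cutadapt and the build GRCm38 were used, per the submitters' processing notes. The aligner, the counter, strand use and how multiply matching reads were divided: not given in the sources used here. Counts were rounded. The quasi-likelihood test of edgeR 4.0.16 (R 4.3.3) was run with TMM factors, a filterByExpr minimum count of 10 and minimum total of 15, and no term but group. Its p-values were Benjamini-Hochberg adjusted, with a threshold of 0.05. It was fitted once over mature miRNAs, scaled to their own totals, and once over all RNAs. Permutation tests used scipy 1.17.1. Alternatives were DESeq2 1.42.0, limma-trend (limma 3.58.1), other factors and filters, a replicate block and leaving out each library. The fits were tested on simulated data. Intervals are exact Clopper-Pearson 95% intervals. They, and the limit of 3 reads used where a library had 0, cover counting error only, since the files record no molecular identifiers. The members and lists were chosen with earlier results of these data known. The miRNAs named were the members, members of 2 lists (other miRNAs made without Drosha, common references) and the 3 nearest profiles of each member. Of the epithelial, stromal and blood and serum lists, only miR-199a-3p, miR-142a-3p, miR-451a and miR-486a-5p were named. miR-1224-5p, the other arms and the arm shares were added after their values were seen. Positions came from GENCODE M21 and sequences from RefSeq.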

Additional observations from a re-analysis of the deposited data

How the results depend on the processing

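The number of mature miRNAs called was 161 with all libraries, 81 when at least 10 reads were required in every library (fewer were tested there), and 103 (without Fb replicate 3) to 213 (without Fb replicate 1) when one library was left out. miR-320-3p on the miRNA scale passed with no filter on low counts (log2 fold change 1.19, edgeR adjusted p = 0.0173). That fit kept miRNAs with few or no Fb reads, and its median over all miRNAs tested was 1.31, against -0.11 in the main fit. miR-320-3p was thus below the median there, but above it in the main fit at 0.72. With one library left out miR-320-3p ranged from 0.52 to 1.68, passing only without Fb replicate 1. miR-877-5p on that scale ranged from 0.27 to 1.75 with one library left out, again passing only without Fb replicate 1, and turned to -0.058 with miRNA totals alone. It could not be tested at 10 reads in every library, since it did not reach them. miR-484 on that scale kept its sign and did not pass under the alternatives run. The median of the tested miRNAs was -0.11 in the main fit, and -0.52 with miRNA totals alone. With totals of all reads alone, the fit of all RNAs gave 4.02, 2.48 and 3.66 for miR-320-3p, miR-484 and miR-877-5p, all passing. With TMM factors in the fit of all RNAs, where miR-484 was 0.48 and miR-877-5p 2.38 with all libraries, miR-484 was -0.045 without Fb replicate 1 (range -0.045 to 1.24 with one library left out), and miR-877-5p ranged from 1.91 to 2.95. The level of miR-484 over the median of others turned to -0.73 against miRNAs with at least 10 reads in every library; the cause of these changes was not tested. Of the other miRNAs made without Drosha, 0 were called at 10 reads in every library, where miR-1981-5p, with 9 reads in Fb replicate 1, was not tested, and 1 to 2 with one library left out. Of the common references 2 were called, 1 with miRNA totals alone, 4 with no filter, and 0 to 4 with one library left out. Over all tested miRNAs, calls higher in ESC numbered 71 in the main fit, 52 with miRNA totals alone and 99 with no filter. With one library left out they ran from 38 (without ESC replicate 3 or Fb replicate 3) to 103 (without Fb replicate 1). The changes in these list counts are therefore not read as a result about either list. Same-numbered ESC and Fb libraries had correlations of deviations from their group means of -0.25, -0.10 and -0.14. Differently numbered ones ran from -0.27 to 0.35. With 3 libraries per group these cannot show whether the replicate numbers of the titles pair libraries. With the replicate block miR-877-5p missed the threshold in the fit of all RNAs (2.43, edgeR adjusted p = 0.0731). On the miRNA scale that block gave 114 calls over all tested miRNAs, 45 of them higher in ESC, and 1 common reference was called. Fb libraries had 49019 to 177990 miRNA reads, which limits miR-877-5p most.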
